A study of Mus musculus with 6 samples.

Results

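The genes described here make cholesterol, control its synthesis through the transcription factor SREBP2, or move sterols inside the cell. They are 26 genes taken by symbol from a list of the pathway, 19 for enzymes of synthesis, 4 for regulators and 3 for transport proteins, and each had 1 row among the 56691 genes of the deposited table. Steps of the pathway with no gene in the list are not analysed here. RNA was sequenced from wild-type mouse bone marrow stromal cells (BMSCs), primary adherent marrow cells that can become osteoblasts, after 7 days in osteoblast medium. In 3 samples this medium was given together with conditioned medium (CM) of Hepa 1-6, a mouse hepatoma cell line, and in the other 3 it was given with control medium. Both groups received 10% serum, 50 µg/ml ascorbic acid and 1.08 mg/ml beta-glycerophosphate, renewed every 2 days, and the libraries held 18661629 to 21329475 counts. The labels do not say what the control medium was, so the effect of hepatoma factors and that of medium used by any cells cannot be told apart, nor do they say whether samples were separate animals or cultures. What the p-values weigh is thus the variation among these 6 samples, part or all of which may be technical.

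Cells build cholesterol from acetyl-CoA by way of mevalonate, isoprenoids, squalene and lanosterol. When membranes of the endoplasmic reticulum are poor in sterol, the escort protein SCAP carries SREBP2 to the Golgi, where proteases release its transcription factor part. When sterol is plentiful, the INSIG proteins hold SCAP and SREBP2 back, and the genes of the pathway, which carry sterol regulatory elements, are transcribed less. Mevalonate pathway products also feed the lipid tails of small GTPases, and the nitrogen-containing bisphosphonates, which block farnesyl diphosphate synthase and so disable osteoclasts, are used against bone loss.

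Transcripts of cholesterol synthesis were lower as a group in CM. Of the 26 genes, 25 had a mean of at least 1 FPKM over the 6 samples and were tested. FPKM is the read count scaled by the length of the exons and the library total. Calls needed an adjusted p (edgeR quasi-likelihood test) below 0.05, and log2 fold changes are CM minus control medium ± SE. By that rule 17 of the 25 genes fell in CM and 1 rose, where 22.9% and 23.0% of all 12153 genes tested fell and rose. At least 2-fold falls were found in 6 of the 25, against 2.18% of all genes tested. All 3 CM samples lay below all 3 control samples in 18 of the 25 genes, against 28.4% of all genes. The median log2 fold change of the 25 was -0.44, and that of all genes tested was -0.0028. The 26 genes were chosen with earlier results of these data known, so these shares are a description, and the set as a whole was not tested.

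**Figure D1:**
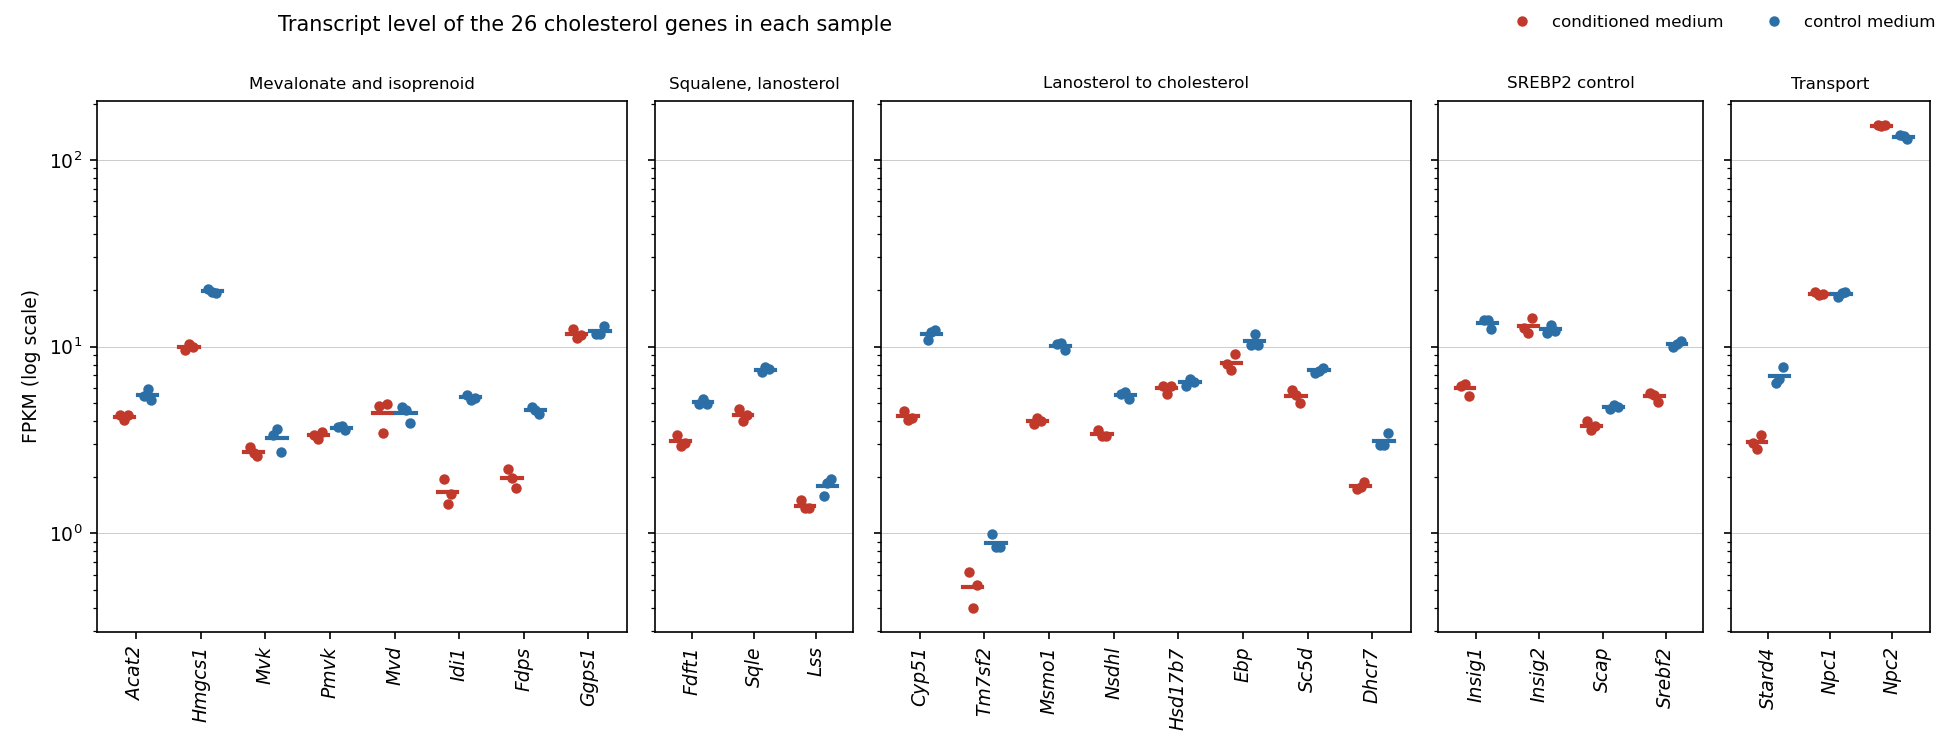
FPKM on a log scale for each of the 26 genes in each sample, with CM samples left of control samples for every gene and bars at the group means (n = 3 each). The clouds of points part for most enzymes, Insig1, Srebf2 and Stard4, and lie together for Ggps1, Mvd, Insig2 and Npc1.

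SREBP2 is known to act on promoters together with partners such as NF-Y and Sp1, and 5 promoters of the set are shown here. They are RefSeq windows of the GRCm38.p6 build, from 250 bases before to 50 bases after the annotated gene start, 5′ to 3′ on the gene's own strand. Capitals mark matches on either strand to TCACNCCA, a core of the sterol regulatory element, and to CCAAT, the box bound by NF-Y. Hmgcs1 (chr13:119690101-119690400, plus strand), Msmo1 (chr8:64733529-64733828, minus strand) and Srebf2 (chr15:82147019-82147318, plus strand) are shown because they fell and hold a TCACNCCA match, Idi1 (chr13:8885356-8885655, plus strand) because it fell the most of the 25 and holds none, and Ggps1 (chr13:14063439-14063738, minus strand) because its call did not pass.
Hmgcs1: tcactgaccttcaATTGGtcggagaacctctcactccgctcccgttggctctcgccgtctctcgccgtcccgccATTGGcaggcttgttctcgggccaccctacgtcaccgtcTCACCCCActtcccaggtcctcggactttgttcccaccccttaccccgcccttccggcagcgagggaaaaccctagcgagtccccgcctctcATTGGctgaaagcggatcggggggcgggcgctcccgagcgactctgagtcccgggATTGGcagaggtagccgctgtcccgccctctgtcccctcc
Msmo1: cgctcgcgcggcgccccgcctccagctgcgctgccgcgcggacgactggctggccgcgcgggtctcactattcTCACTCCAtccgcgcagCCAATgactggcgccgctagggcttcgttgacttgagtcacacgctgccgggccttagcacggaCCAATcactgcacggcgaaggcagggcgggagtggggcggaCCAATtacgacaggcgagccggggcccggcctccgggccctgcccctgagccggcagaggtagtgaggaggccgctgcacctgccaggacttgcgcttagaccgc
Srebf2: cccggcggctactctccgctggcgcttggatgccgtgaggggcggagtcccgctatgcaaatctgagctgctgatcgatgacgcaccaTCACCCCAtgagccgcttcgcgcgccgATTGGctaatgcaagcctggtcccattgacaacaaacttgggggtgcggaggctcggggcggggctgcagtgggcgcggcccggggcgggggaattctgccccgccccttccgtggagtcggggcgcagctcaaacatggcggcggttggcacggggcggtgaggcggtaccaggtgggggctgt
Idi1: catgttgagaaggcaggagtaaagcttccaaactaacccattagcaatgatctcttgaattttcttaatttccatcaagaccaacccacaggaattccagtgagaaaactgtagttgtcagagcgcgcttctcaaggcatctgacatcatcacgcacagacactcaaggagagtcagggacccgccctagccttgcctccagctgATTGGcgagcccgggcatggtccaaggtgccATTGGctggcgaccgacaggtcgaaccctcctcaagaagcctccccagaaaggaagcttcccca
Ggps1: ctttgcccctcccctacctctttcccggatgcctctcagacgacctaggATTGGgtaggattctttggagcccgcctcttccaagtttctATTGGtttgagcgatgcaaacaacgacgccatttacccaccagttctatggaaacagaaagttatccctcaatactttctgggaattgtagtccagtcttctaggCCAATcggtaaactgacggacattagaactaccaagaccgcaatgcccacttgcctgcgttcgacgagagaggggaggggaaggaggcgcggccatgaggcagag

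The TCACNCCA match began at position -137 in Hmgcs1, -177 in Msmo1 and -162 in Srebf2, counted from the annotated gene start. RefSeq windows were matched for 21 of the 26 genes. Fdps, Fdft1 and Sqle had no entry among the RefSeq windows. Windows on chromosome 18, where Stard4 and Npc1 lie, were not used for the genes of the set. They were kept in the shares over all windows. The 21 genes had 27 windows, some of which overlap within Scap and within Dhcr7. Of these, 3 windows (11.1%) held TCACNCCA, against 4.36% of all 32851 windows of the table. CCAAT was found in 19 of the 27 (70.4%), against 37.4% of all windows. The GC box GGGCGG, a sequence that Sp1 can bind, was found in 22 (81.5%), against 35.7% of all windows, and the E-box CACGTG in 6 (22.2%), against 7.15%. For each motif the share over all windows took in genes whether or not they were expressed in these cultures. Windows of expressed genes alone were not counted, so what the share is among expressed genes was not tested. Both strands were searched, and matches of different motifs did not overlap in the windows of the 21 genes. Among genes with a window used, TCACNCCA lay in 3 of 13 that fell and in 0 of 6 that were not called. Fdps, Fdft1, Sqle and Stard4, which fell, and Npc1, which was not called, are outside these counts. CCAAT lay in 11 of the 13 and in 6 of the 6. GGGCGG lay in 13 of the 13 and in 4 of the 6, and CACGTG in 4 of the 13 and in 1 of the 6. The numbers of genes per call are small, and differences in motif counts between calls were not tested. A match is a run of letters, and no binding was measured.

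**Figure D2:**
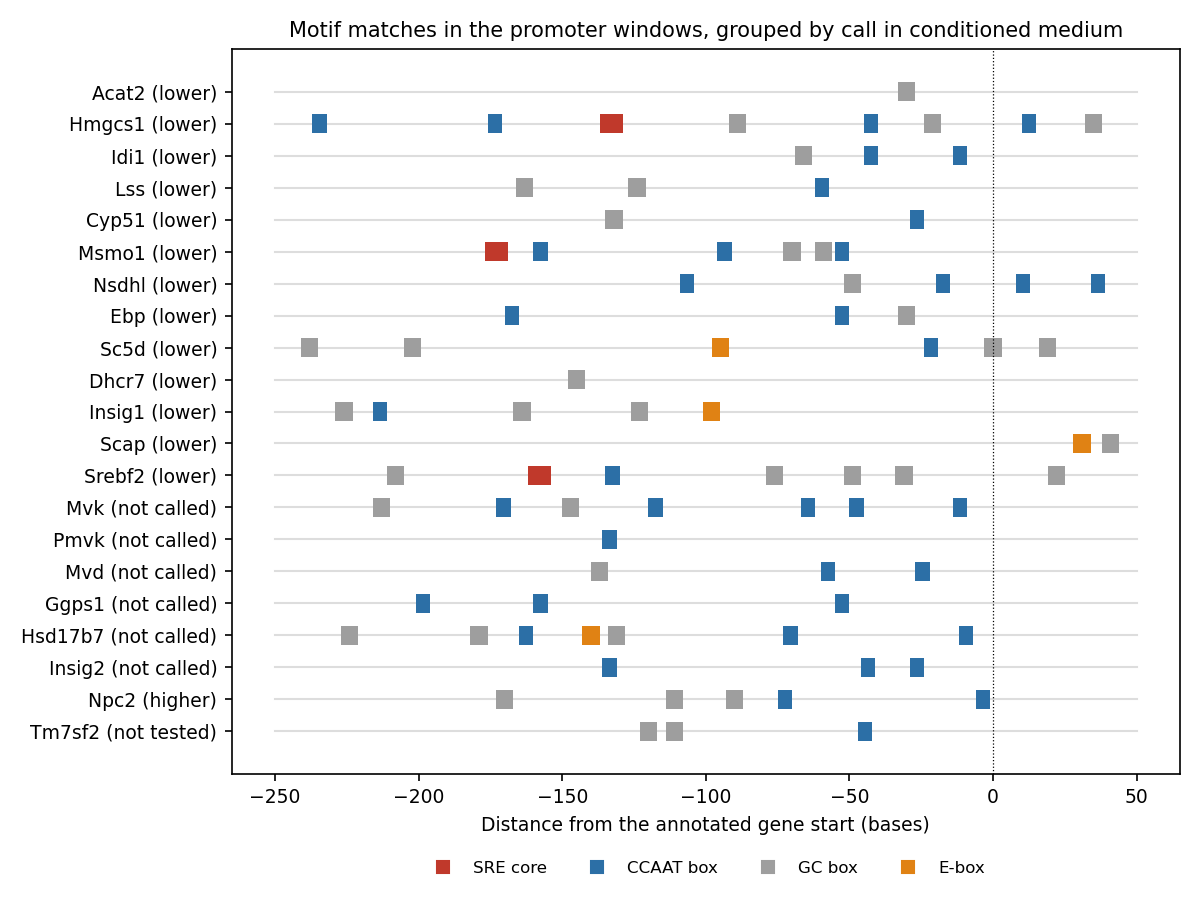
Positions of 4 motifs in the promoter window of each of 21 genes, the farthest upstream window where a gene has several, in bases from the annotated gene start. Genes are grouped by their call in CM. The SRE core (TCACNCCA) appears in Hmgcs1, Msmo1 and Srebf2, while CCAAT boxes appear among genes that fell and among genes that were not called.

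Of the 8 enzymes that turn acetyl-CoA into isoprenoid diphosphates, 4 fell, 0 rose and 4 were not called. Acat2, the cytosolic thiolase that joins acetyl-CoA units, was at 4.32, 4.04 and 4.28 FPKM in CM and at 5.46, 5.92 and 5.18 FPKM in control medium. The groups did not overlap, and the log2 fold change was -0.37 ± 0.097 (adjusted p = 0.0035). Hmgcs1, the HMG-CoA synthase, is on chromosome 13 at 120151915 to 120169796 in GRCm39. It had 9.61, 10.4 and 9.96 FPKM in CM, against 20.4, 19.7 and 19.5 FPKM in control medium. Every CM sample was well below every control sample, with 908 to 976 counts in CM and 1745 to 1860 counts in control medium. The fall was 1.97-fold (log2 fold change -0.97 ± 0.051, adjusted p = 1.0e-12).

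The 3 enzymes that carry mevalonate to isopentenyl diphosphate gave no call. Mvk, the mevalonate kinase, was at 2.89, 2.70 and 2.59 FPKM in CM and at 3.35, 3.62 and 2.73 FPKM in control medium, so the lowest control sample lay within the CM range. Its log2 fold change was -0.23 ± 0.13 (adjusted p = 0.16), and without control medium replicate 3 it was called lower (adjusted p = 0.039). Pmvk, the phosphomevalonate kinase, was at 3.34, 3.18 and 3.50 FPKM in CM and at 3.69, 3.76 and 3.59 FPKM in control medium. The groups lay close together without overlap, and the log2 fold change was -0.12 with a 95% interval of -0.40 to 0.16. Mvd, the decarboxylase, was at 4.78, 3.44 and 4.94 FPKM in CM and at 4.73, 4.60 and 3.88 FPKM in control medium. The groups overlapped and the interval of the log2 fold change was -0.27 to 0.31. These 3 genes had between 104 and 197 counts in a library, and the intervals of Mvk and Pmvk still include falls to -0.50 and -0.40.

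Idi1, the isomerase that makes the second isoprenoid building block, fell the most of the 25 genes. It had 1.95, 1.44 and 1.63 FPKM in CM, against 5.53, 5.16 and 5.33 FPKM in control medium. The highest CM sample was well under the lowest control sample, and the counts were 96 to 142 in CM and 362 to 389 in control medium. The fall was 3.15-fold (log2 fold change -1.66 ± 0.11, adjusted p = 6.5e-11). Fdps, the farnesyl diphosphate synthase, had 2.20, 1.97 and 1.74 FPKM in CM, against 4.76, 4.60 and 4.36 FPKM in control medium. Its groups stood apart as well, with a 2.30-fold fall (log2 fold change -1.20 ± 0.10, adjusted p = 2.4e-09). Ggps1, which makes geranylgeranyl diphosphate for protein prenylation, was at 12.4, 11.1 and 11.5 FPKM in CM and at 11.7, 11.6 and 12.8 FPKM in control medium. These values overlapped, and the 95% interval of the log2 fold change was -0.16 to 0.087. It shares 257 bases with Arid4b on the opposite strand, which was at -0.042 ± 0.051.

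All 3 enzymes that form squalene and lanosterol fell. Fdft1, the squalene synthase, had 3.36, 2.93 and 3.05 FPKM in CM, against 4.91, 5.26 and 4.90 FPKM in control medium, a log2 fold change of -0.67 ± 0.086 (adjusted p = 1.4e-06). Its gene overlaps by 774 bases the cathepsin B gene Ctsb on the opposite strand, which had 713254 counts over the 6 samples where Fdft1 had 2023, and which changed by -0.21 ± 0.034. All CM samples of Fdft1 lay below all control samples, but no source used here says if reads were counted by strand, and reads of the shared stretch could belong to either gene. Sqle, the squalene epoxidase, had 4.63, 3.99 and 4.32 FPKM in CM, against 7.27, 7.77 and 7.55 FPKM in control medium. The groups did not overlap, and Sqle fell 1.72-fold (log2 fold change -0.79 ± 0.068, adjusted p = 4.2e-09). Lss, the lanosterol synthase, was at 1.50, 1.36 and 1.36 FPKM in CM and at 1.58, 1.85 and 1.96 FPKM in control medium. The nearest samples of the groups lay close, at a log2 fold change of -0.34 ± 0.092 (adjusted p = 0.0044). The Lss call was lost with limma on log2(FPKM + 1), log2(FPKM + 0.1) and log2(TPM + 1), with adjusted p = 0.066, 0.070 and 0.058.

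Of the 8 enzymes that turn lanosterol into cholesterol, 7 were tested, 6 fell and 0 rose. Cyp51, the lanosterol demethylase, is on chromosome 5 at 4131145 to 4154746 in GRCm39. It had 4.50, 4.03 and 4.14 FPKM in CM, against 10.9, 12.0 and 12.3 FPKM in control medium. All CM samples were low and all control samples high, a 2.75-fold fall (log2 fold change -1.46 ± 0.070, adjusted p = 2.9e-13). Its end overlaps 166 bases of Akap9 on the other strand, whose log2 fold change was 0.020 ± 0.058. Msmo1, the methylsterol oxidase that acts after Cyp51, had 3.87, 4.16 and 3.98 FPKM in CM, against 10.3, 10.5 and 9.53 FPKM in control medium. Its groups were as clearly parted, with a 2.50-fold fall (log2 fold change -1.32 ± 0.061, adjusted p = 1.4e-13).

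The falls of later enzymes ran from -0.36 to -0.79. Nsdhl, the decarboxylating sterol dehydrogenase, had 3.57, 3.33 and 3.32 FPKM in CM, against 5.56, 5.71 and 5.27 FPKM in control medium (log2 fold change -0.68 ± 0.094, adjusted p = 4.5e-06). Ebp, the sterol isomerase, had 8.03, 7.53 and 9.07 FPKM in CM, against 10.2, 11.7 and 10.2 FPKM in control medium (-0.36 ± 0.086, adjusted p = 0.0015). Sc5d, the sterol desaturase, had 5.82, 5.48 and 4.96 FPKM in CM, against 7.24, 7.38 and 7.72 FPKM in control medium (-0.44 ± 0.070, adjusted p = 2.1e-05). The groups of these 3 genes did not overlap. Dhcr7, a reductase of the last steps whose loss causes Smith-Lemli-Opitz syndrome in people, had 1.72, 1.77 and 1.89 FPKM in CM, against 2.98, 2.98 and 3.44 FPKM in control medium. It fell 1.73-fold (log2 fold change -0.79 ± 0.096, adjusted p = 6.3e-07), with every CM sample below every control sample.

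Hsd17b7, the keto-sterol reductase of the pathway, was the 1 tested enzyme of this stretch without a call. It was at 6.12, 5.60 and 6.18 FPKM in CM and at 6.18, 6.71 and 6.49 FPKM in control medium, where the highest CM sample equalled the lowest control sample. Its log2 fold change was -0.098, with a 95% interval of -0.24 to 0.040. Tm7sf2, a sterol reductase, was below the expression filter, at 0.620, 0.400 and 0.530 FPKM in CM and at 0.990, 0.840 and 0.840 FPKM in control medium, from 141 counts in the 3 CM samples and 233 in the 3 control samples. With no filter on low values its log2 fold change was -0.74 (adjusted p = 0.0014). Tm7sf2 shares 532 bases with Vps51 on the same strand, which changed by -0.23 ± 0.090.

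**Figure D3:**
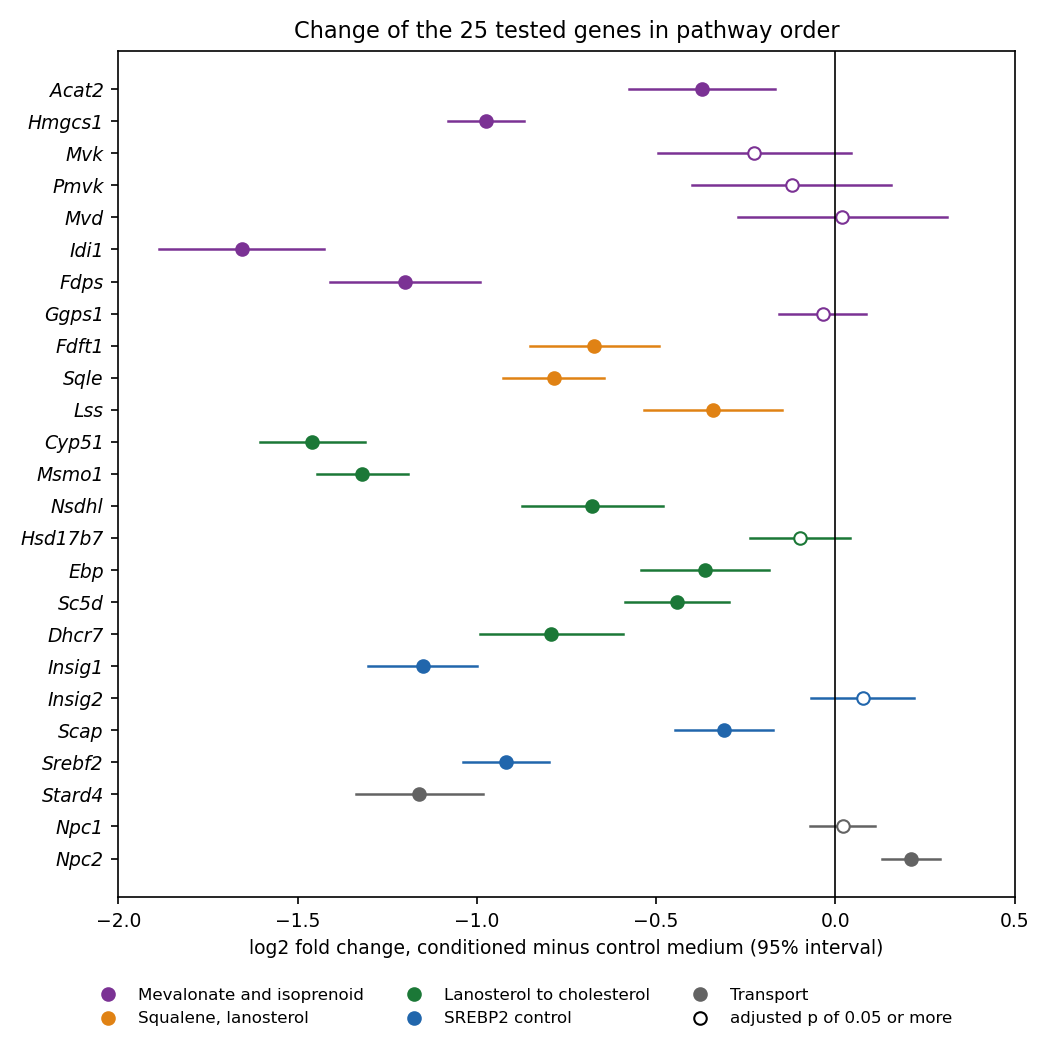
Log2 fold change of the 25 tested genes, CM minus control medium, in pathway order from top to bottom, with 95% intervals. Filled points passed an adjusted p of 0.05. Idi1 at -1.66, Cyp51 at -1.46 and Msmo1 at -1.32 lie farthest left, and Npc2 at 0.21 is the 1 filled point to the right of 0.

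The FPKM of the 19 enzymes summed to 85.2, 78.8 and 83.0 in CM and to 128, 132 and 128 in control medium. The sum in CM averaged 82.3 ± 3.26 FPKM and that in control medium 129 ± 2.30 FPKM (SD, n = 3 each), a ratio of 0.638. Each CM sample was below each control sample. Levels per exon length in control medium ran from Hmgcs1 at 19.8 ± 0.467 FPKM, through Ggps1 at 12.1 ± 0.660 and Cyp51 at 11.7 ± 0.741, to Lss at 1.80 ± 0.196 and Tm7sf2 at 0.890 ± 0.0866 (SD, n = 3). In CM Ggps1 was the highest enzyme by mean, at 11.6 ± 0.653 FPKM, followed by Hmgcs1 at 9.98 ± 0.375 FPKM, and the ranges of these genes did not overlap there. Cyp51 and Ebp overlapped in control medium, at 10.9 to 12.3 and 10.2 to 11.7 FPKM, but not in CM, where Cyp51 had 4.03 to 4.50 and Ebp 7.53 to 9.07 FPKM.

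Of the 4 regulators, 3 fell and 0 rose. Srebf2, which encodes SREBP2 and is itself a target of SREBP2, is on chromosome 15 at 82031382 to 82089580 in GRCm39. It had 5.66, 5.52 and 5.06 FPKM in CM, against 9.96, 10.4 and 10.7 FPKM in control medium. The groups were far apart, and the fall was 1.89-fold (log2 fold change -0.92 ± 0.057, adjusted p = 1.8e-11). Scap, the sterol-sensing escort, had 3.99, 3.57 and 3.77 FPKM in CM, against 4.61, 4.85 and 4.76 FPKM in control medium. It fell, with groups that did not overlap (-0.31 ± 0.065, adjusted p = 5.1e-04).

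Of the INSIG pair, Insig1 fell and Insig2 was not called. Insig1, the INSIG whose gene is an SREBP target, had 6.16, 6.31 and 5.43 FPKM in CM, against 13.8, 13.9 and 12.5 FPKM in control medium. All CM samples lay low, a 2.22-fold fall (log2 fold change -1.15 ± 0.073, adjusted p = 2.9e-11). Insig2, the other retention protein, was at 12.6, 11.8 and 14.3 FPKM in CM and at 11.9, 13.1 and 12.2 FPKM in control medium. Its groups overlapped, and the interval of its log2 fold change was -0.068 to 0.22. The FPKM ratio of Insig1 over Insig2 was 0.490, 0.536 and 0.380 in CM and 1.17, 1.06 and 1.03 in control medium. The ratio was lower in all 3 CM samples (exact permutation test over samples, two-sided, p = 0.10, the smallest that 3 against 3 samples can give).

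**Figure D4:**
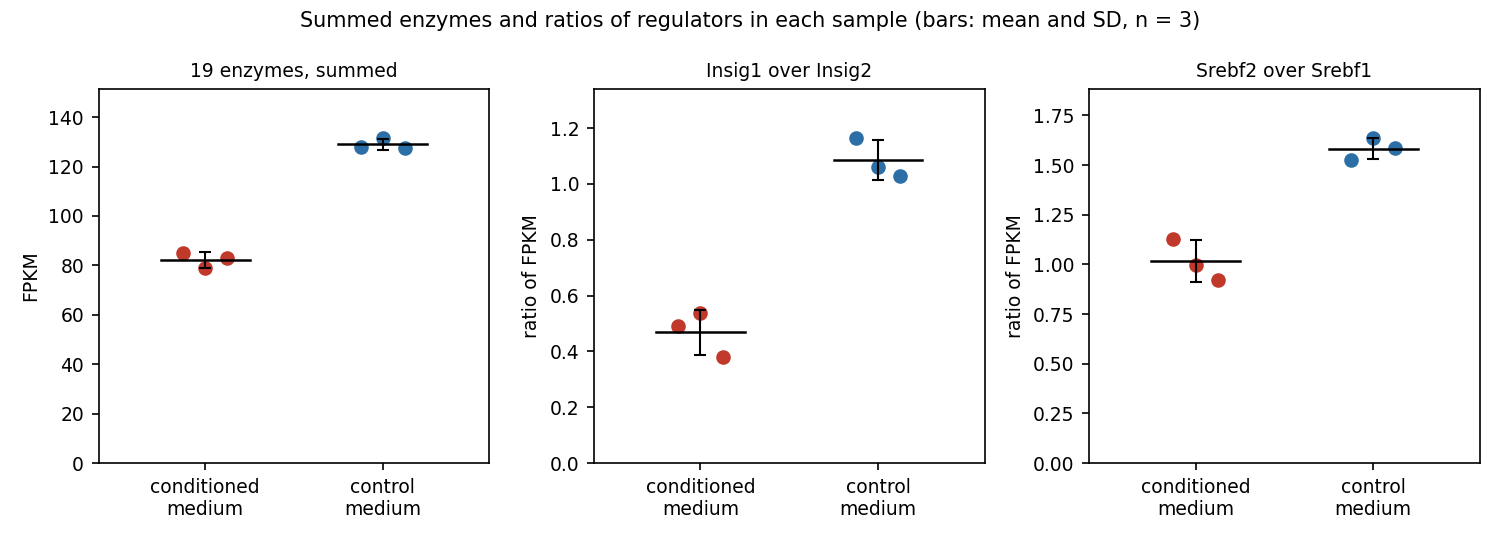
Summed FPKM of the 19 enzymes and the FPKM ratios of Insig1 over Insig2 and of Srebf2 over Srebf1 in each sample, with mean and SD (n = 3 each), CM left of control medium and axes from 0. In all 3 panels every CM point is below every control point.

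The 3 transport genes went separate ways. Stard4, which carries cholesterol through the cytosol and is known as an SREBP target, had 3.06, 2.82 and 3.35 FPKM in CM, against 6.40, 6.70 and 7.78 FPKM in control medium. The groups were well parted, with a 2.23-fold fall (log2 fold change -1.16 ± 0.084, adjusted p = 2.7e-10). Npc1, the membrane protein that exports cholesterol from lysosomes, was at 19.5, 18.9 and 19.1 FPKM in CM and at 18.4, 19.4 and 19.6 FPKM in control medium. The groups overlapped, and the interval of the log2 fold change was -0.071 to 0.11. Npc1 shares 967 bases with Rmc1 on the opposite strand, which rose by 0.49 ± 0.073. Npc2, its soluble partner, had 153, 151 and 153 FPKM in CM, against 136, 134 and 130 FPKM in control medium. It was the 1 gene of the 25 that rose (log2 fold change 0.21 ± 0.038, adjusted p = 1.2e-04), and its 3 CM samples were all above the control samples. Npc2 was the most abundant of the 26 genes in both groups.

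Within the groups the samples lay close for most genes, but not for all. Among the 25 tested genes the SD reached 18.8% of the mean in CM (Mvd) and 14.1% in control medium (Mvk). For Idi1 in CM it was 15.4%. Over the 17 genes that fell, CM replicate 1 was the highest CM sample in 11 and CM replicate 2 the lowest in 9. Control medium replicate 2 was the highest control sample in 8 and replicate 1 the lowest in 9. Ties for the lowest went to the lower replicate number. They were Lss in CM (replicates 2 and 3) and Dhcr7 in control medium (replicates 1 and 2). Without CM replicate 1, CM replicate 2 or any other single library, 17 or 18 of the 25 genes fell and 1 rose.

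Neighbouring pathways are given for comparison, with up to 4 genes per list picked by size of change. For these and all later lists and terms, the shares over all 12153 genes tested were 22.9% that fell and 23.0% that rose. Of 15 tested genes for SREBP processing and INSIG partners, 4 fell and 5 rose (median log2 fold change 0.078). The site-2 protease gene Mbtps2 changed by -0.24 ± 0.055 and the ubiquitin ligase gene Rnf139 by -0.27 ± 0.058, both falls, and the COPII coat genes Sec24a and Sec24c rose by 0.38 ± 0.051 and 0.21 ± 0.045. Of 13 tested fatty acid synthesis genes, many of them SREBP1 targets, 4 fell and 4 rose (median -0.044). Among them the desaturase genes Scd1 and Fads1 changed by 0.31 ± 0.062 and -0.31 ± 0.050, the elongase gene Elovl6 by 0.29 ± 0.099 and the acetyl-CoA carboxylase regulator gene Mid1ip1 by -0.30 ± 0.072. The Elovl6 call was lost without CM replicate 2 or control medium replicate 2 and with limma, where its log2 fold change was 0.19 to 0.26. Srebf2 over Srebf1 stood at 1.13, 0.998 and 0.923 in CM and at 1.53, 1.64 and 1.58 in control medium (exact permutation test, two-sided, p = 0.10, the smallest possible). Srebf1 itself fell, at 5.34 ± 0.287 FPKM in CM and 6.53 ± 0.195 FPKM in control medium (-0.27 ± 0.064, adjusted p = 0.0014). The prenylation, dolichol and ubiquinone branch, which draws on Fdps and Ggps1 products, had 5 falls and 4 rises among 15 tested genes (median -0.031). In it the dolichol synthesis gene Nus1 rose by 0.62 ± 0.042 and the ubiquinone tail gene Pdss1 by 0.53 ± 0.14, while the prenyltransferase genes Fntb and Pggt1b changed by -0.34 ± 0.10 and -0.23 ± 0.062. The Fntb call was lost without CM replicate 2 (-0.27).

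LXR genes, which cells use when sterol is plentiful, moved both ways, and so did other genes of sterol handling. Of 9 LXR receptors and targets, 6 fell and 2 rose (median -0.49). The cholesterol exporter gene Abca1 was at 52.6 ± 0.896 FPKM in CM and 32.5 ± 2.85 FPKM in control medium, a rise of 0.71 ± 0.052 on the log2 scale. The lipid carrier gene Apoe was at 232 ± 10.1 FPKM in CM and 1293 ± 134 FPKM in control medium (-2.46 ± 0.057), and Pltp and Arl4c changed by -1.79 ± 0.069 and -0.84 ± 0.061. Of 18 other genes of sterol uptake, esterification and transport, 8 fell and 7 rose (median -0.090). Lipa, the lysosomal lipase that frees cholesterol from its esters, changed by -1.38 ± 0.045, the HDL receptor gene Scarb1 by -0.71 ± 0.057, the cholesterol ester hydrolase gene Nceh1 by -0.58 ± 0.045 and the sterol transfer gene Gramd1b by 0.54 ± 0.058. In the list of oxysterol and bile acid enzymes 3 genes were tested, of which 2 fell and 1 rose (median -0.24). Ch25h, whose product makes an oxysterol, rose by 1.08 ± 0.12, and Cyp27a1, an oxysterol and bile acid enzyme gene, changed by -0.95 ± 0.16. The list also held Lbr, which is no such enzyme gene but encodes a sterol reductase of cholesterol synthesis that acts at the same step as Tm7sf2. Lbr was at 6.64 ± 0.715 FPKM in CM and 7.92 ± 0.420 FPKM in control medium (-0.24 ± 0.074, adjusted p = 0.012), and its call was lost without CM replicate 1 (-0.15).

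**Figure D5:**
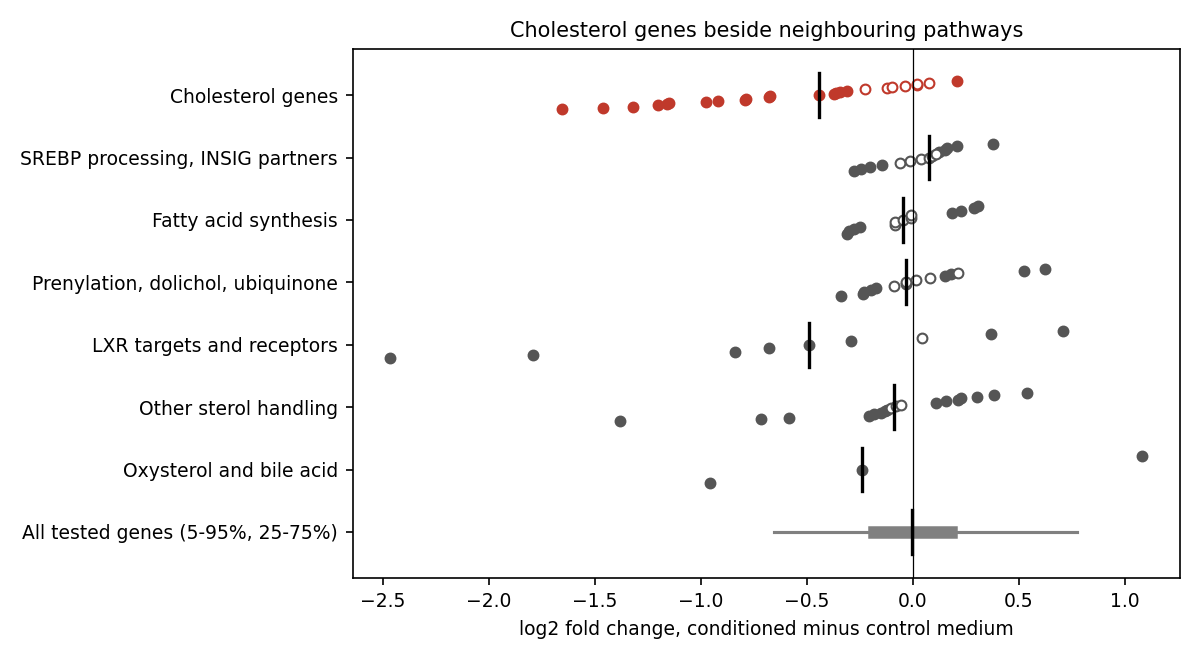
Log2 fold change, CM minus control medium, of each tested gene in the cholesterol set and in 6 neighbouring lists, with filled points for calls, black bars at list medians, and the range of all 12153 genes tested in the lowest row. The cholesterol genes reach from -1.66 to 0.21 around a median of -0.44, and the LXR list has a median of -0.49 but holds rises to 0.71.

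Cell type markers moved alongside these genes. The cultures are labelled mesenchymal stem cells under osteoblast differentiation, but macrophage markers were abundant. Their 18 genes summed to 6694 to 7405 FPKM in CM and to 9187 to 10611 FPKM in control medium. Of these, 12 fell and 5 rose (median -0.43), and none was at 0. Most of the sum was Lyz2, at 4571 ± 355 FPKM in CM and 6683 ± 592 FPKM in control medium. Adgre1 was among the 5 that rose (0.37 ± 0.041). The largest changes were those of Cx3cr1 at -5.14 ± 0.21, Itgam at 1.80 ± 0.043, Csf1r at -1.35 ± 0.042 and Fcgr1 at 1.14 ± 0.043. Of 12 tested osteoblast and stromal markers 9 fell and 1 rose (median -0.28), led by Ibsp at -3.33 ± 0.15, Sp7 at -1.57 ± 0.12, Pth1r at -1.16 ± 0.093 and Dlx5 at -0.58 ± 0.12. The 13 genes summed to 1170 to 1245 FPKM in CM and 1418 to 1542 FPKM in control medium, and Bglap, the osteocalcin gene, had 2 counts in CM and 2 in control medium. In bulk RNA fewer cells of a type and less RNA per cell cannot be told apart, and the part of cell types in the falls of the cholesterol genes was not tested.

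Of 8 proliferation markers, 6 fell and 0 rose (median -0.21), with summed levels of 111 to 116 FPKM in CM and 140 to 146 FPKM in control medium. Pcna changed by -0.54 ± 0.046, Mcm5 by -0.53 ± 0.065, Mcm2 by -0.30 ± 0.063 and Aurkb by -0.26 ± 0.10, a call that was lost without CM replicate 2 (log2 fold change -0.21), CM replicate 3 (-0.22) or control medium replicate 2 (-0.18). Of 5 tested adipocyte markers 4 fell and 1 rose (median -0.36), with Lpl at -1.73 ± 0.094, Cebpa at -1.14 ± 0.057, Pparg at -0.36 ± 0.081 and Fabp4 at 1.33 ± 0.053, while Adipoq, Plin1 and Cidec lay below the filter. The 8 adipocyte genes summed to 301 to 312 FPKM in CM and 425 to 469 FPKM in control medium. Most of that sum was Cd36, at 223 ± 5.77 FPKM in CM and 263 ± 7.05 FPKM in control medium. Adipoq had 8 counts in CM and 27 in control medium, Plin1 had 4 and 6, and Cidec had 2 and 5. Of 7 liver and hepatoma markers only Afp was tested, at 1.42 ± 0.0833 FPKM in CM and 1.34 ± 0.0781 FPKM in control medium, and 4 of the 7 were at 0 counts in all 6 samples. The part of proliferation in the falls was not tested, nor was that of any adipocytes, whose presence these markers do not settle.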

How the data were processed

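RNA was measured in 6 libraries, 3 per medium, by poly(A) selection and paired 150-base reads, per the labels' protocols. The authors deposited 1 table. For every gene it gives, per the file headers, the read count and the FPKM of each sample. GRCm39, DESeq2, HTSeq 0.6.1, HISAT2 2.0.1 and cutadapt 1.9.1 appear in the submitters' processing notes, without roles. The deposited FPKM equalled the count scaled by exon length and library total within 0.006 in 100% of cases. Totals were 18661629 to 21329475 counts, which sets the precision of low genes.

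The 26 genes and the 11 other lists were chosen with earlier results of these data known. The 12153 genes whose mean FPKM reached 1 were tested on counts by edgeR 4.0.16 quasi-likelihood in R 4.3.3, with TMM factors and medium in the model, and adjusted over all of them by Benjamini-Hochberg. The SE is the size of the unshrunk log2 fold change divided by √F, and 95% intervals use the t quantile of the test. Fits on counts simulated for the comparison of CM with control medium over 12153 genes recovered 54% of genes changed 1.2-fold and 90% of those changed 2-fold. The simulation changed only a small part of the genes, where 45.9% of all genes tested were called in these data. Its rates therefore do not give the share of real changes that the test recovered here. Alternatives used DESeq2 1.42.0, limma 3.58.1, other scalings and filters, a replicate block and 5 samples in place of 6. All 26 genes were named, with up to 4 called genes of the largest change picked per other list. Some others, among them Srebf1, Lyz2, Adgre1 and Cd36, were named besides these and were not followed under the alternatives. The genome build of the promoter windows, GRCm38.p6, is not that of the counts, and no coordinate was converted.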

Additional observations from a re-analysis of the deposited data

How the results depend on the processing

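Of 350 values of the 25 tested genes under 14 alternatives, 335 kept their direction and their side of the threshold. Genes of the set that fell numbered 17 with RLE factors, DESeq2, library size alone and the replicate block, 16 with limma on log2(FPKM + 1), log2(FPKM + 0.1) or log2(TPM + 1), and 18 with no filter on low values, which adds Tm7sf2. The median over all tested genes of the set, fallen or not, became -0.56 with no filter. Leaving out 1 library at a time gave 17 to 18 falls, and medians over the 25 tested genes of -0.50 to -0.41. Leaving out the genes that overlap another gene of 100 or more counts, an alternative chosen after seeing the data, left 15 falls and 1 rise. The summed enzyme ratio was 0.621 in TPM, 0.645 with TMM scaling and 0.627 to 0.652 with 1 library left out. The share of rises among all calls was 38.6% with limma on log2(TPM + 1), against 50.1% in the edgeR test. Changes of sign were found only in genes without a call. Mvd was at -0.013, -0.018 and -0.054 with limma on log2(FPKM + 1), log2(FPKM + 0.1) and log2(TPM + 1), and at -0.077 to 0.16 with 1 library left out. Npc1 was at -0.034 with limma on log2(TPM + 1), and at -0.013 to 0.042 with 1 library left out, Ggps1 then at -0.079 to 0.015 and Insig2 at -0.0077 to 0.14. The cause was not tested. Of 560 values of the 40 genes picked from the other lists, 546 kept their call and 14 lost it. Those were Elovl6 under each limma fit and without CM replicate 2 or control medium replicate 2, Fntb without CM replicate 2, Lbr without CM replicate 1, and Aurkb with DESeq2, with no filter, with limma on either FPKM scale and without CM replicate 2, CM replicate 3 or control medium replicate 2. Same-numbered samples did not deviate together (r = 0.0019, 0.015 and 0.058 over genes for replicates 1, 2 and 3, under the 0.1 set for pairing), so the numbers were not taken as pairs, and not every sample correlated best with its own number. The replicate block changed no call of the 25 genes.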

Other observations

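The deposited table assigns its own KEGG terms, which do not depend on the 26 symbols. Of 16 tested genes with the term for steroid biosynthesis, 12 fell and 1 rose (median log2 fold change -0.56). Among them were 10 of the 26 genes, of which 9 fell, and 6 others, of which 3 fell and 1 rose. Of 23 tested genes with the term for terpenoid backbone biosynthesis, 9 fell and 3 rose (median -0.10), with 4 falls among 8 of the 26 genes and 5 falls and 3 rises among 15 others.

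Several genes of the set have close relatives or copies. Idi2, the second isomerase gene, had 0 counts over the 6 samples, and the pseudogenes Idi1-ps1 and Idi1-ps5 had 16 and 10 counts, where Idi1 had 1479. Other relatives were counted more often. Acat3 had 74 counts, but Acat1, the mitochondrial thiolase gene, had 5024, where Acat2 had 1496. Ebpl, a relative of Ebp, had 1315 counts, where Ebp had 2644. Lbr had 4184 counts, where Tm7sf2 had 374. The microRNA gene Mir33, which lies in an intron of Srebf2, had 0 counts in these poly(A) libraries, which do not measure mature microRNAs.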
